A study of Mus musculus with 39 samples.

Results

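The genes of oxygen sensing were examined in microglia from wildtype (WT) and 5XFAD mice housed under chronic intermittent hypoxia (CIH) or room air (normoxia, NX). They were taken by name, with earlier results of these data known: the alpha subunits of the hypoxia-inducible factors (Hif1a, Epas1 and Hif3a), their partner Arnt, the prolyl hydroxylases Egln1, Egln2 and Egln3, the asparaginyl hydroxylase Hif1an, the ubiquitin ligase subunit Vhl, and Bnip3, a mitophagy receptor and HIF target. These are 10 genes of 46333 in the female table and of 54532 in the male table, and each of the 10 was found in both tables.

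RNA was sequenced from CD11b+ cells taken from the cerebrum with magnetic beads, in 39 libraries. The 4 female groups were WT NX (n = 4), WT CIH (n = 5), 5XFAD NX (n = 5) and 5XFAD CIH (n = 5), and the 4 male groups were the same with n = 5 in each. CIH began at 4 months of age, and the females were 10 and the males 8 months old at harvest, so age and length of exposure went with sex and the sexes were analyzed apart. By the labels, oxygen swung between 6.5% and 21% at 90-s intervals for 8 h per day, while the study's methods name a slightly lower oxygen level and a longer daily period. NX mice breathed 21% oxygen under the same noise and airflow. 5XFAD mice carry mutant human transgenes of familial Alzheimer's disease driven in neurons by the Thy1 promoter, on crosses to C57BL/6J, and form amyloid plaques. CD11b beads also bind myeloid cells other than microglia.

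In oxygenated cells the prolyl hydroxylases mark HIF alpha subunits for capture by Vhl, which leads to their degradation, while Hif1an blocks binding of the coactivators p300 and CBP. When oxygen falls, both kinds of hydroxylase slow, the alpha subunits persist, join Arnt and bind short motifs near genes for glycolysis, blood vessel growth and mitophagy. Much of this control acts on protein, whereas the values here are messenger RNA. They give transcript levels of the pathway and of known HIF targets, and not the amount or activity of HIF protein.

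Reads counted on genes ranged from 14731683 to 25906121 in the female and from 13457293 to 23095627 in the male libraries. Levels between libraries are given in CPM (the share of a library's gene counts, scaled by TMM, edgeR's correction for composition), and levels between genes in the deposited FPKM, which divides by gene length. All 10 microglia markers were present, with summed levels of 23690 to 36700 CPM. A female library, F 5XFAD NX 4, stood apart from its label: it lay at −42.5 on the first principal component of the female libraries, where the WT libraries lay between −58.2 and −27.9 and the other 5XFAD NX libraries between 35.9 and 69.9, and its 15 markers of disease-associated microglia (DAM, the plaque-linked state) summed to 11870 CPM against 56080 to 93350. In males, M 5XFAD NX 4 and M 5XFAD NX 5 lay at −1.94 and −3.65 on the first component, against 78.9 to 80.2 for the other M 5XFAD NX libraries. Results that rest on these libraries are given with and without them, and the male pairs to leave out were chosen after seeing the data. Nothing beyond their numbering and the study's mention of independent samples says that libraries came from separate mice, so p-values measure the spread between libraries.

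Under NX in WT microglia, Vhl had the highest level per length of the 10 genes and Hif3a the lowest. In WT NX females, Vhl stood at 38.7 ± 2.41 FPKM (SD, n = 4) and Hif1a at 34.5 ± 2.69, with ranges that overlapped. Arnt followed at 24.9 ± 1.64, Egln2 at 24.3 ± 1.58 and Bnip3 at 21.6 ± 4.63, 3 neighbours in the order that did not differ beyond their spread. Egln1 was at 16.2 ± 1.86 and Hif1an at 8.73 ± 0.846. At the bottom of the order were Epas1 with 4.80 ± 4.32, Egln3 with 1.62 ± 1.59 and Hif3a with 0.166 ± 0.0563 FPKM. In WT NX males the order again began with Vhl (35.6 ± 3.39 FPKM, n = 5) and ended with Egln3 (0.515 FPKM) and Hif3a (0.174 FPKM), with Egln2 at 24.9 ± 4.12 and Hif1a at 16.6 ± 0.55. In 5XFAD the order changed at the top, since Hif1a stood at 162 ± 9.47 FPKM in 5XFAD CIH females and at 81.6 ± 14.9 in 5XFAD NX males, and Egln3 reached 26.8 and 26.1 FPKM in the same groups, near the level of Vhl (29.0 and 30.3). The FPKM tables of the sexes were scaled in different ways, so FPKM values are read only within a sex.

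The 5XFAD genotype went with higher Hif1a and Egln3 in both sexes and under both treatments, with smaller rises of Egln1 and Bnip3 in 3 of the 4 comparisons. These comparisons ask what plaque-bearing brain changes in microglia under each air. The test was edgeR's quasi-likelihood F test, with Benjamini-Hochberg FDR over all genes tested, and a gene was called at FDR < 0.05 and a DEG when its absolute log2FC also exceeded 1. The NX and CIH comparisons of a sex use different libraries.

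**Figure D1:**
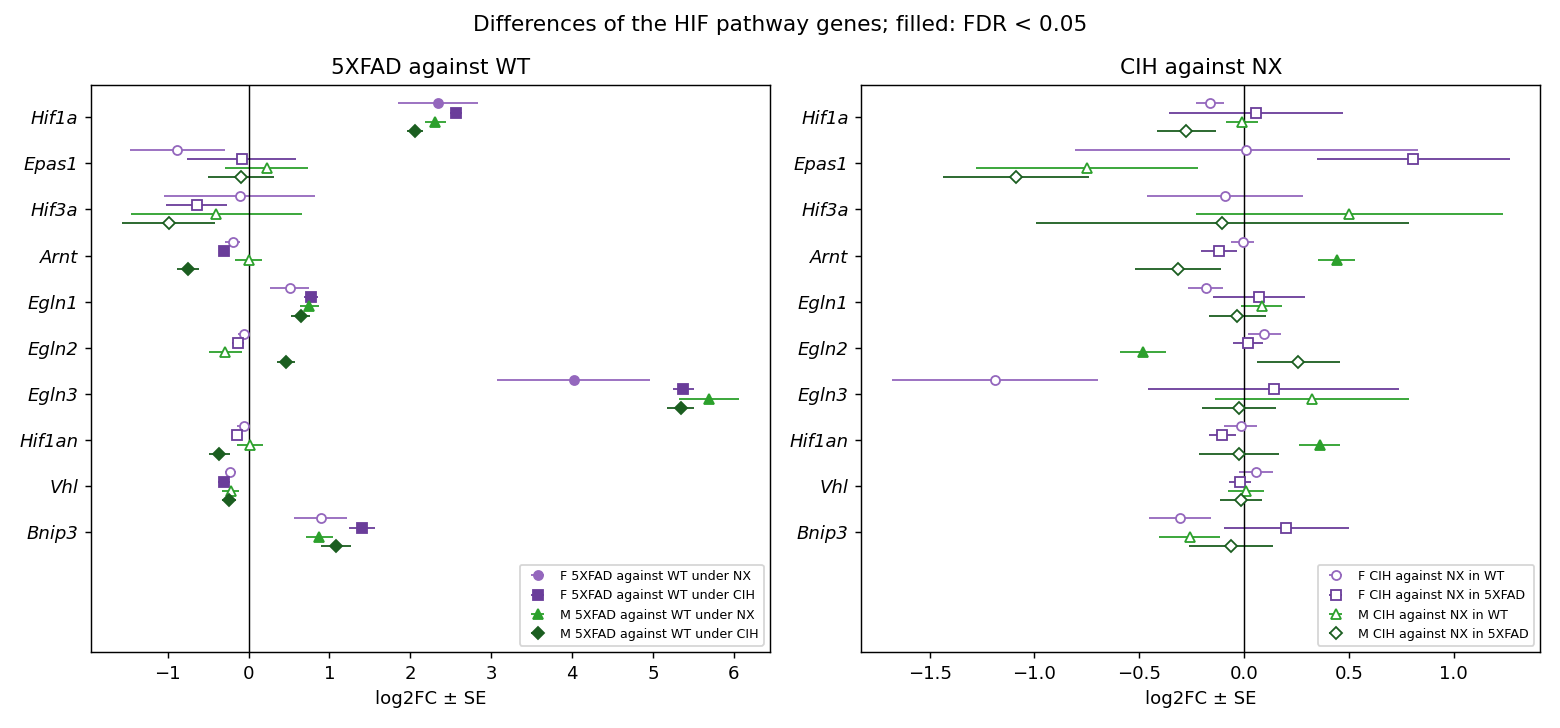
log2FC of the 10 genes (x axis, with SE bars) in 5XFAD against WT (left) and in CIH against NX (right) for each sex, filled where FDR < 0.05. Egln3 and Hif1a lie farthest to the right in all 4 comparisons of genotype, with log2FC of 4.02 to 5.70 and 2.05 to 2.57.

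Hif1a encodes HIF-1 alpha and had the highest FPKM of the alpha subunits in every group. In WT NX females it was measured at 152, 129, 148 and 153 CPM, and in 5XFAD NX females at 1016, 939, 647, 121 and 968 CPM. Of the 5XFAD NX libraries, 4 lay far above WT NX, and F 5XFAD NX 4 lay below every WT NX library, so that the groups overlapped. In WT CIH females it stood at 145, 122, 123, 137 and 125 CPM, and in 5XFAD CIH females at 751, 754, 749, 695 and 866 CPM, with no overlap. The log2FC was 2.34 (SE 0.498, FDR = 0.0232) under NX and 2.57 (SE 0.0745, FDR = 3.82e-11) under CIH, a rise of 5.06-fold and 5.92-fold.

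In males, Hif1a was at 102, 93.7, 98.9, 100.5 and 96.3 CPM in WT NX and at 388, 461, 443, 553 and 587 CPM in 5XFAD NX. It was at 87.5, 93.2, 99.1, 105 and 103 CPM in WT CIH and at 414, 402, 372, 350 and 474 CPM in 5XFAD CIH. Every 5XFAD male library lay above every WT male library. The rise was 4.96-fold under NX (log2FC 2.31, SE 0.129, FDR = 1.46e-07) and 4.15-fold under CIH (log2FC 2.05, SE 0.101, FDR = 1.98e-09).

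**Figure D2:**
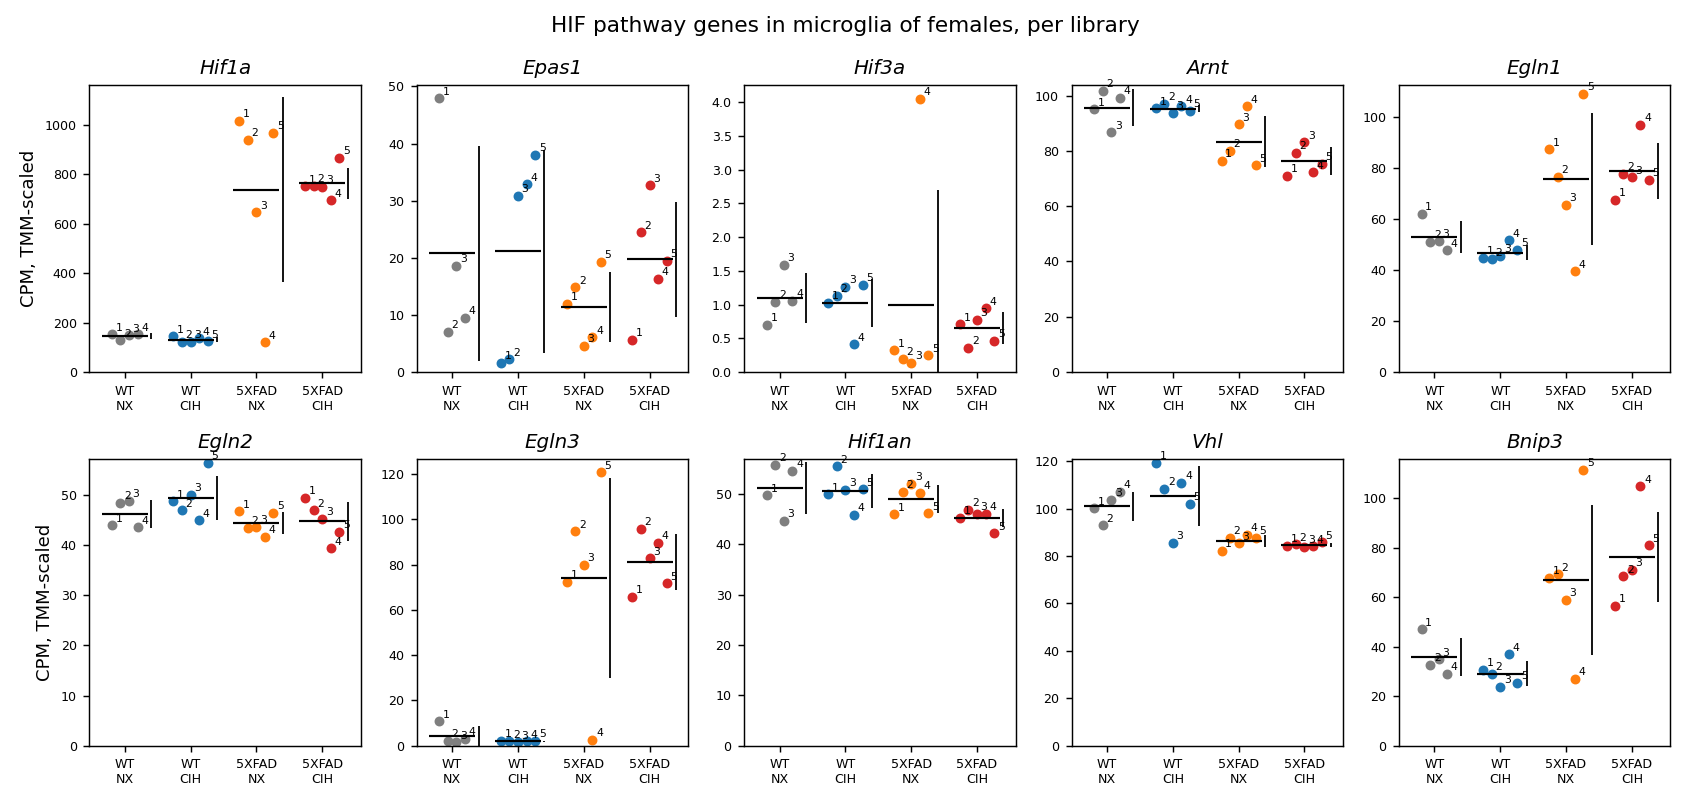
TMM-scaled CPM (y axis) of the 10 genes in each female library, by group, with points numbered by replicate, the group mean as a horizontal and the SD as a vertical line. In 5XFAD NX, library 4 lies with the WT libraries for Hif1a (121 CPM) and Egln3 (2.64 CPM), while the other libraries of that group lie at 647 to 1016 and at 72.5 to 121 CPM.

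Egln3, which encodes the hydroxylase PHD3 and is itself a HIF target, had the largest change of the 10 genes. It was at 10.9, 2.20, 1.54 and 3.05 CPM in WT NX females and at 72.5, 94.7, 80.0, 2.64 and 121 CPM in 5XFAD NX females. Again F 5XFAD NX 4 lay among the WT libraries, and F WT NX 1 lay well above the other WT females. Under CIH, Egln3 was at 2.10, 1.96, 1.501, 1.95 and 2.27 CPM in WT females and at 65.7, 95.8, 82.7, 89.6 and 71.7 CPM in 5XFAD females. The log2FC was 4.02 (SE 0.948, FDR = 0.0297) under NX and 5.38 (SE 0.134, FDR = 2.18e-11) under CIH, or 16.2-fold and 41.6-fold. Without F WT NX 1 the log2FC of Egln3 under NX was 5.03 (FDR = 0.0384).

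In males, Egln3 was at 0.305, 2.03, 1.02, 1.54 and 2.01 CPM in WT NX and at 50.8, 83.7, 84.8, 55.5 and 77.5 CPM in 5XFAD NX. It was at 2.19, 1.63, 1.67, 1.74 and 1.38 CPM in WT CIH and at 76.5, 63.2, 53.4, 66.8 and 87.1 CPM in 5XFAD CIH. The genotypes did not overlap, and M 5XFAD NX 4 and 5 lay within the range of the other M 5XFAD NX libraries. The rise was 51.8-fold under NX (log2FC 5.70, SE 0.372, FDR = 5.28e-07) and 40.5-fold under CIH (log2FC 5.34, SE 0.171, FDR = 2.25e-11). The lowest value, in M WT NX 1, rested on 6 reads.

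**Figure D3:**
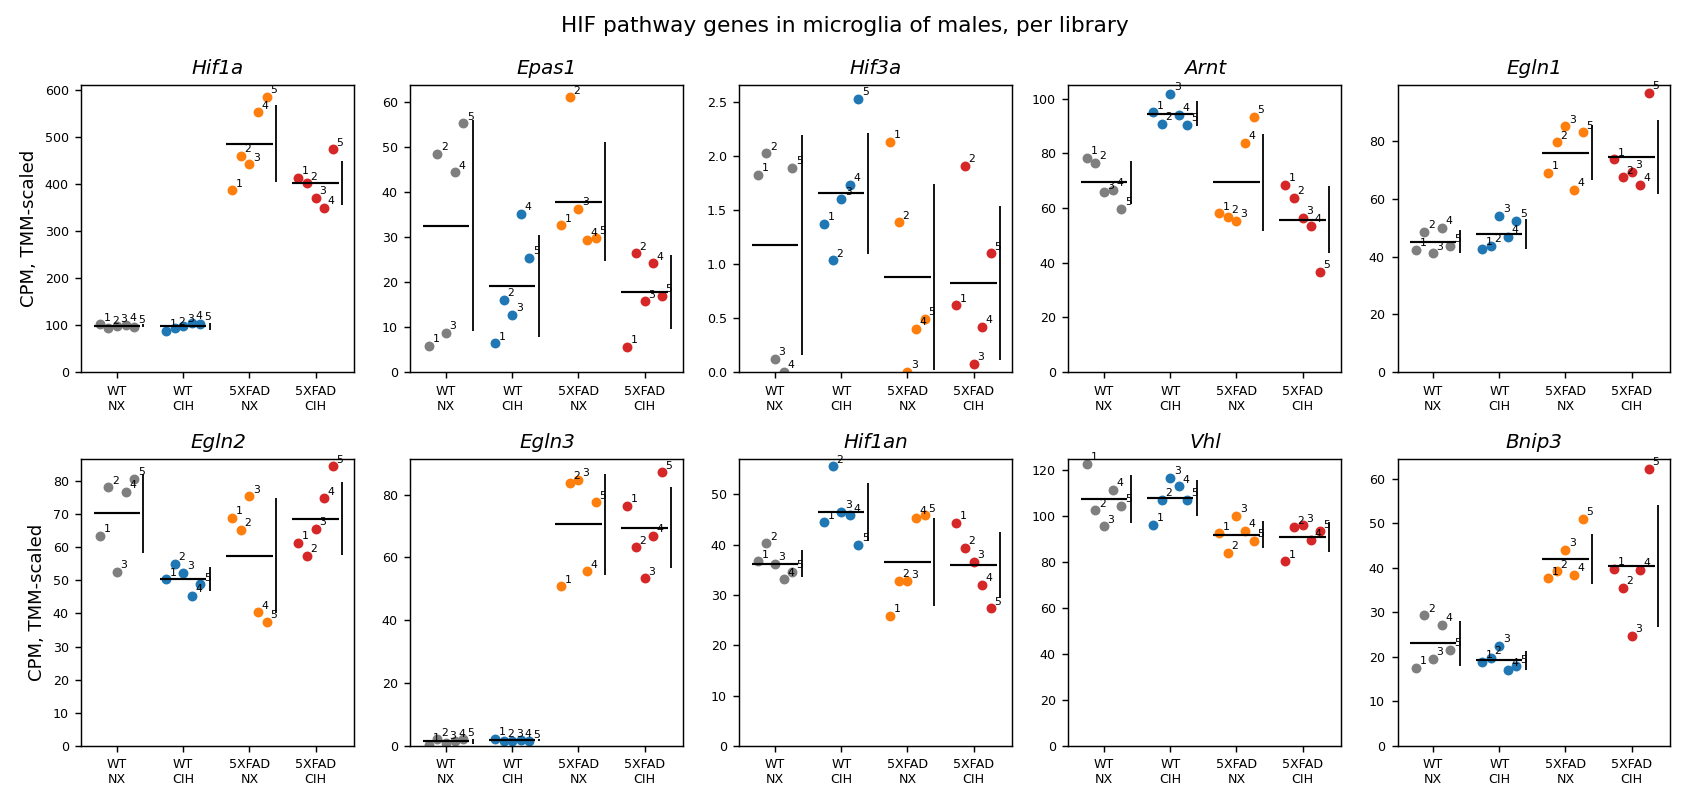
TMM-scaled CPM (y axis) of the 10 genes in each male library, by group, with points numbered by replicate, the group mean as a horizontal and the SD as a vertical line. Hif1a, Egln3 and Egln1 separate every 5XFAD library from every WT library, for Hif1a at 350 to 587 against 87.5 to 105 CPM.

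Bnip3, a receptor on the outer mitochondrial membrane that recruits the autophagy machinery, rose in 3 comparisons. In females it was at 47.0, 32.7, 34.96 and 29.0 CPM in WT NX, at 67.9, 69.3, 58.9, 27.0 and 112 in 5XFAD NX, at 30.7, 29.0, 23.8, 37.0 and 25.6 in WT CIH and at 56.6, 68.5, 71.3, 105 and 81.1 CPM in 5XFAD CIH. All 5XFAD females but F 5XFAD NX 4 exceeded all WT females. The log2FC was 0.89 under NX, which was not called (SE 0.328, FDR = 0.0894), and 1.40 under CIH (SE 0.156, FDR = 7.19e-06). In males its ranges were 17.5 to 29.4 CPM in WT NX and 37.6 to 51.1 in 5XFAD NX (log2FC 0.87, SE 0.164, FDR = 0.00256), and 17.1 to 22.5 in WT CIH and 24.7 to 62.3 in 5XFAD CIH (log2FC 1.08, SE 0.188, FDR = 0.000293).

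Egln1 encodes PHD2, the main prolyl hydroxylase acting on HIF-1 alpha in most cells. It was at 47.9 to 62.2 CPM in WT NX and 39.5 to 109 in 5XFAD NX females, the lowest being F 5XFAD NX 4, and was not called (log2FC 0.51, SE 0.238, FDR = 0.162). It rose under CIH, from 44.3 to 51.8 CPM in WT females to 67.8 to 97.0 in 5XFAD females (log2FC 0.77, SE 0.0867, FDR = 8.51e-06). In males it rose under NX, from 41.1 to 49.9 CPM to 63.1 to 85.2 (log2FC 0.75, SE 0.119, FDR = 0.000743), and under CIH, from 42.7 to 54.2 CPM to 65.0 to 96.7 (log2FC 0.64, SE 0.118, FDR = 0.000438). The 5XFAD to WT ratio of Egln1 lay between 1.56 and 1.70 in the comparisons where it was called, a much smaller fold than that of Egln3, another enzyme of the same family.

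Vhl and Arnt were lower in 5XFAD under CIH. Vhl recognizes hydroxylated HIF alpha subunits for ubiquitination. It was at 85.6 to 119 CPM in WT CIH and 83.8 to 85.8 in 5XFAD CIH females (log2FC −0.30, SE 0.0743, FDR = 0.00427), and at 96.1 to 117 and 80.3 to 95.9 CPM in the male groups (log2FC −0.24, SE 0.0863, FDR = 0.0338). The male call of Vhl held in 4 of 10 fits that each left out 1 library (FDR up to 0.0832), and was lost without M 5XFAD CIH 1 or 4 or any of M WT CIH 2 to 5. Under NX it did not pass the test, although the female groups did not overlap (92.9 to 107 CPM in WT, 82.2 to 88.9 in 5XFAD, FDR = 0.0507), and the male log2FC was −0.22 (FDR = 0.166). Arnt, the common partner of all alpha subunits, was at 93.7 to 97.0 CPM in WT CIH females and 70.9 to 83.1 in 5XFAD CIH females (log2FC −0.31, SE 0.052, FDR = 0.000262). Under NX it was not called in females (log2FC −0.20, FDR = 0.178), with F 5XFAD NX 4 highest of its group at 96.2 CPM. The male values of Arnt are described with the CIH comparison of WT males.

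Hif3a, an alpha subunit with isoforms that can restrain the others, was near the limit of counting. Its counts ran from 0 to 69 reads per library and its level did not exceed 4.05 CPM. F 5XFAD NX 4 held the highest value, and the other 5XFAD NX females lay at 0.133 to 0.324 CPM against 0.698 to 1.59 in WT NX. It was called in none of the comparisons, and without F 5XFAD NX 4 its log2FC between female genotypes under NX was −2.22 (FDR = 0.00188).

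Counted together, 2 of the 10 genes were called higher in 5XFAD in NX females, and both were DEGs, where 7.26% of the 14513 genes tested were called higher, 6.61% lower and 4.4% were DEGs that rose. A further pair had an unadjusted p < 0.05. In CIH females 4 were called higher, 3 of them DEGs, and 2 lower, against 26.2% and 25.7% of 14911 genes and 8.83% rising DEGs. In NX males 4 were called higher, 2 of them DEGs, and none lower, against 10.4%, 5.94% and 7.37% of 14834 genes. In CIH males 5 were called higher, 3 of them DEGs, and 3 lower, against 25.3%, 11.8% and 23.7% of 14793 genes. The median log2FC of the 10 genes was −0.0591, −0.108, 0.119 and 0.182 in these comparisons in turn, beside −0.02, −0.0184, 0.0232 and −0.0599 over all genes. The shares called lower under CIH lay near the background. The counts called higher under CIH passed it by few genes, and neither is a result about these genes as a group.

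The female NX result turned on single libraries. Without F 5XFAD NX 4, 7 of the 10 genes were called: Hif1a (log2FC 2.61, FDR = 2.91e-06), Egln3 (4.30, FDR = 0.000154), Bnip3 (1.09, FDR = 0.00241) and Egln1 (0.66, FDR = 0.00525) higher, and Hif3a, Arnt (−0.26, FDR = 0.0231) and Vhl (−0.25, FDR = 0.0127) lower, among 6229 genes called of 14149. With F 5XFAD NX 4 kept, leaving out any one of the other libraries except F WT NX 1 brought the count of members to 0, with an FDR of up to 0.0742 for Hif1a and 0.0879 for Egln3. The DAM markers moved with these rises: 12 of 15 were called higher in NX females and 15 of 15 in CIH females and in both male comparisons. Their sums were 13310 to 21460 CPM in WT females, 62240 to 82850 in 5XFAD CIH females, 11110 to 18840 in WT males and 49600 to 122800 in 5XFAD males, with none at 0 throughout a group. Their part in the result was not tested. Of the 7 border macrophage markers, 6, 6, 5 and 3 were called lower in NX females, CIH females, NX males and CIH males, and of the 10 microglia markers 5, 6, 6 and 5 were called lower and 0, 1, 0 and 2 higher. Of 12 markers of the response to cell dissociation, 4, 3, 1 and 4 were called higher and 0, 0, 4 and 0 lower, with sums of 1753 to 3681 CPM in WT NX and 2861 to 4276 in 5XFAD NX females and of 1538 to 2152 and 1127 to 1637 CPM in the same male groups. Of 8 astrocyte markers 1, 3, 2 and 1 were called higher and 1, 1, 1 and 3 lower, with sums in NX males that did not overlap (135 to 182 CPM in WT, 359 to 971 in 5XFAD). Oligodendrocyte markers were called higher in 0 and 1 of 6 in females and 3 and 2 of 7 in males, and lower in 1, 1, 0 and 0. Neutrophil markers were called lower in 3 of 8 under CIH in each sex and in none under NX, and 2 of 5 erythroid markers were called lower in NX males. Of the lymphocyte markers 2 of 3 tested were called higher in CIH males, and of the endothelial, mural and neuron markers no more than 1 was called in either direction in any comparison. No marker was at 0 in every library of a group, and the part of these markers was likewise not tested.

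Because Hif1a, Egln1, Egln3 and Bnip3 were called higher together in 3 comparisons, their promoters are shown. That of Egln2 is added, the family member that did not rise with them under NX but was called higher in CIH males. Each runs from 250 bases before to 50 bases after the transcription start, 5′ to 3′ on the gene's strand, from RefSeq on GRCm38.p6. Capitals mark the core of the hypoxia response element, ACGTG or GCGTG, on either strand, where CACGTG is an E-box that holds ACGTG on both strands and counts as 2 matches. Positions are Hif1a chr12:73907617-73907916 (+), Egln1 chr8:124949205-124949504 (−), Egln3 chr12:54203825-54204124 (−), Bnip3 chr7:138909457-138909756 (−) and Egln2 chr7:27166753-27167052 (−).
Hif1a: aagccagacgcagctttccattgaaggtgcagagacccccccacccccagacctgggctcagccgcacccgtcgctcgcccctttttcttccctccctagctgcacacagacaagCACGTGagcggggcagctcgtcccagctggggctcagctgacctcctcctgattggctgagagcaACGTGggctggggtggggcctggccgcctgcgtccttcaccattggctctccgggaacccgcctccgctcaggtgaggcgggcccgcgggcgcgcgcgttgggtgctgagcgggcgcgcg
Egln1: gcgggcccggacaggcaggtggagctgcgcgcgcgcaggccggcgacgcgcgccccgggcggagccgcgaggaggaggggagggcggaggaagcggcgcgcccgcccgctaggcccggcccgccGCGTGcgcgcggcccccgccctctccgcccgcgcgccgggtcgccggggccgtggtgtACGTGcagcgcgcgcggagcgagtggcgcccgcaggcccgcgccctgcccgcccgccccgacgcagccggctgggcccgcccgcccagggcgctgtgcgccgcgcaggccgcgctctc
Egln3: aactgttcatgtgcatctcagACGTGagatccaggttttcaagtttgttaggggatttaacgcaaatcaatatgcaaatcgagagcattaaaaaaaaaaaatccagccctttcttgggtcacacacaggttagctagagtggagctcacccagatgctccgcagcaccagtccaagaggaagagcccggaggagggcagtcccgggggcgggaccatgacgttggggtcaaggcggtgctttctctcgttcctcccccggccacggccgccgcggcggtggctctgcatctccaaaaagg
Bnip3: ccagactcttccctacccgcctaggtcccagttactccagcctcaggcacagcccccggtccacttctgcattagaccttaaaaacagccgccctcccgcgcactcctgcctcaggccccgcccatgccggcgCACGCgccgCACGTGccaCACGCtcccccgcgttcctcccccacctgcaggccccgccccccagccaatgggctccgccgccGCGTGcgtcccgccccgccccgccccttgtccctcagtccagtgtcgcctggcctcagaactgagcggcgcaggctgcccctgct
Egln2: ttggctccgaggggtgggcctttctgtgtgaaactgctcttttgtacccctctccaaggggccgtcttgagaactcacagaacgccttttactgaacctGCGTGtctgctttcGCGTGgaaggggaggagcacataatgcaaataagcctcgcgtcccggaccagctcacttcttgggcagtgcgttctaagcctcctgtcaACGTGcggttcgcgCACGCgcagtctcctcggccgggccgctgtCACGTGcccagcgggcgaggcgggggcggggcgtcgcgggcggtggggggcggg

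A match was held by 43.8% of the 32851 mouse promoters of this length, 2 or more by 20.6% and 4 or more by 3.86%. Egln3, with the largest fold, held 1 match, 229 bases before the start. Egln1 held 2 matches, Hif1a 3, Bnip3 5 and Egln2 6 in the promoters shown. Whether the matches have a part in the changes was not tested. Hif3a held 2 and Arnt 1, a second Egln2 promoter held 1, and Hif1an and Vhl held none in this window. Promoters were matched for 9 of the 10 genes, all but Epas1. A match describes the letters and is not a measured binding site.

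The other genes of the pathway were taken from lists made from general knowledge, with earlier results of these data known: turnover and cofactors of HIF (24 genes), glycolytic HIF targets (18), other HIF targets (25) and mitophagy partners of Bnip3 (16). By median log2FC the glycolytic targets moved most. Of the 18, all tested, 4 were called higher in NX females, 14 in CIH females, 12 in NX males and 11 in CIH males, and 0, 1, 0 and 1 lower, with a median log2FC of 0.912, 1.26, 1.07 and 1.33. Pkm, the last enzyme of glycolysis, had a log2FC of 1.43, 1.92, 1.73 and 2.33 in that order, and Pgk1, an ATP-forming step, had 1.30 (not called, FDR = 0.0785), 2.02, 1.92 and 2.24. Slc16a3, the lactate exporter, had 1.17, 1.76, 1.45 and 1.92. The count in NX females turned on single libraries: 13 of 18 glycolytic targets were called higher and 1 lower without F 5XFAD NX 4, and 0 were called when any one of the other libraries, F WT NX 1 among them, was left out.

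Of the other HIF targets tested, 2 of 20 rose in NX females, 13 of 20 in CIH females, 9 of 21 in NX males and 10 of 20 in CIH males, and 0, 1, 0 and 1 fell. Lox, which crosslinks collagen, rose with log2FC 4.88, 5.16, 5.81 and 5.15. Vegfa, the endothelial growth factor, rose in CIH females (2.54), NX males (1.75) and CIH males (0.94), and its log2FC in NX females was 0.69 (FDR = 0.455). Among the cofactors and turnover genes, 5, 8, 5 and 10 of 24 rose and 1, 4, 1 and 7 fell. Cited4, a binder of p300 and CBP, rose with log2FC 5.82, 6.56, 5.83 and 6.80, and Arnt2, the neuronal relative of Arnt, with 3.61, 4.26, 3.92 and 3.94. Arnt, lower in 5XFAD under CIH in both sexes, thus stood beside a higher Arnt2 in the same libraries. Of 16 mitophagy partners, 2, 12, 4 and 12 rose and 0, 1, 0 and 0 fell, among them the autophagy receptor Optn with log2FC 1.64, 2.19, 2.08 and 1.70. Over all genes, 7.26%, 26.2%, 10.4% and 25.3% were called higher in these comparisons and 6.61%, 25.7%, 7.37% and 23.7% lower. The counts of cofactor and turnover genes under CIH and the 2 of 20 other targets in NX females lay near these shares and are no result about the lists.

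These list counts too turned on single libraries or pairs, and not all of these stood apart from their groups. The male pairs, and the fits printed here, were chosen after seeing the data. In NX females without F 5XFAD NX 4, 11 of 16 mitophagy partners were called higher and 1 lower, 7 of 19 other targets higher and 2 lower, and 8 of 24 cofactor and turnover genes higher and 4 lower. Without any one of the other female NX libraries, 0 mitophagy partners, 0 to 4 other targets and 0 to 3 cofactor and turnover genes were called higher. In NX males without M 5XFAD NX 4 and 5, 11 of 16 mitophagy partners were called higher and 0 lower, and 8 cofactor and turnover genes higher and 4 lower. In CIH males without M 5XFAD CIH 4 and 5, 6 of 20 other targets were called higher and 1 lower. In CIH females the cofactor and turnover genes called lower were 2 without F WT CIH 2.

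Scaling by library size alone shifted the median log2FC of all genes by −0.165 in NX females, −0.211 in CIH females, −0.164 in NX males and −0.434 in CIH males. The calls over all genes then split into 658 higher and 653 lower, 2610 and 6288, 1076 and 2179, and 2205 and 6800, against 1054 and 959, 3906 and 3833, 1545 and 1093, and 3739 and 3509 with TMM. No called member reversed. Egln2 (−0.32) and Hif1an (−0.34) were then called lower in CIH females, and Egln2 (−0.51) and Vhl (−0.42) in NX males, while Egln1 (0.26, FDR = 0.06) and Egln2 (0.08, FDR = 0.505) were no longer called in CIH males. The medians of the glycolytic list stayed positive in all 4 comparisons (0.709, 1.08, 0.864 and 0.953), but that of the cofactor and turnover list became negative (−0.136, −0.133, −0.148 and −0.2). The cofactor and turnover genes then split into 7 higher and 11 lower in CIH females and 7 higher and 10 lower in CIH males, so that the lower calls outnumbered the higher. The mitophagy partners split into 6 higher and 2 lower in CIH females and 7 higher and 4 lower in CIH males, and the other targets into 9 and 2 and into 7 and 3. In NX females 2 glycolytic targets and 2 cofactor and turnover genes were called higher with this scaling.

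The comparisons of CIH with NX within a genotype ask what months of intermittent hypoxia changed. Libraries of the genotype comparisons enter again here. In WT males, Arnt (1.36-fold) and Hif1an (1.28-fold) rose and Egln2 fell (to 0.716 of its NX level), while Hif1a, Egln1, Egln3, Vhl and Bnip3 were not called. With all 4 male groups in one fit none of the 3 was called (FDR = 0.0858 for Arnt, 0.0859 for Egln2 and 0.123 for Hif1an). That was 2 of 10 genes called higher and 1 lower, where 13.6% of 14983 genes were called higher and 15% lower, so the count lay near the background and is no result about the 10 genes as a group. Median log2FC was 0.0458 over the 10 genes and −0.0134 over all genes. The lists had 1 glycolytic target higher and 7 of 18 lower (median −0.307), led by Aldoa (−0.60), Eno1 (−0.57) and Tpi1 (−0.55), which are enzymes of glycolysis. Of the mitophagy partners 2 rose and 8 of 16 fell, among them the receptor Sqstm1 (−0.50). Of the cofactor and turnover genes 3 rose and 6 of 23 fell, with the coactivator gene Ep300 at 0.69 and the Vhl partner Elob at −0.85. Of the other targets 4 rose and 1 of 21 fell, with Ddit4 (1.05) and Vegfa (0.74) higher. The 2 mitophagy partners, 4 other targets and 3 cofactor and turnover genes that rose were likewise near the share of all genes. Those counts are no result about the lists. Scaling by library size moved the median of all genes by 0.0853 and split their calls into 2818 higher and 1551 lower, against 2035 and 2244 with TMM. The same 3 members were called, the glycolytic median stayed negative (−0.209) with 1 higher and 6 lower, and the median of the cofactor and turnover list went from −0.0771 to 0.0291. With this scaling 2 mitophagy partners were called higher and 4 lower, and 5 cofactor and turnover genes higher and 4 lower, the reverse of the balance with TMM. When each library was left out, the mitophagy partners called lower were 4 without M WT CIH 2 or 3 and 5 without M WT CIH 4 or M WT NX 2. The other targets called higher were 2 without M WT CIH 3, 4 or 5 or M WT NX 2, and the cofactor and turnover genes called higher were 5 without M WT CIH 1.

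Arnt was at 78.5, 76.7, 65.8, 66.6 and 59.7 CPM in WT NX males and at 95.0, 90.9, 102, 94.2 and 90.4 CPM in WT CIH males, so every CIH library lay above every NX library (log2FC 0.44, SE 0.0885, FDR = 0.00204). In 5XFAD males it was at 58.0, 56.8, 55.3, 83.9 and 93.3 CPM under NX and at 68.6, 63.7, 56.5, 53.6 and 36.6 CPM under CIH. The NX libraries 4 and 5 were the highest of the 5XFAD groups, and the CIH libraries 4 and 5 the lowest. The log2FC of CIH in 5XFAD males was −0.31 (SE 0.207, FDR = 0.9945), and without libraries 4 and 5 of both groups it was 0.18 (FDR = 0.331), so its direction turned on these libraries. Their labels were kept as deposited, and a direction read from them holds for the libraries as labelled. In CIH males Arnt was lower in 5XFAD than in WT with no overlap (log2FC −0.75, SE 0.140, FDR = 0.000524), and in NX males the log2FC was 0.00 (FDR = 0.994).

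Egln2, which encodes PHD1, went the other way. It was at 63.4, 78.2, 52.7, 76.7 and 80.7 CPM in WT NX males and at 50.3, 54.9, 52.3, 45.2 and 48.8 CPM in WT CIH males, where all CIH libraries but M WT CIH 2 lay below every NX library (log2FC −0.48, SE 0.111, FDR = 0.00472). In 5XFAD males it was at 68.9, 65.2, 75.3, 40.3 and 37.5 CPM under NX and at 61.3, 57.3, 65.6, 74.8 and 84.4 CPM under CIH, with libraries 4 and 5 lowest under NX and highest under CIH. The log2FC of CIH there was 0.26 (SE 0.198, FDR = 0.9945), and for Egln2 too the direction turned without libraries 4 and 5 of both groups (−0.15, FDR = 0.392). The log2FC of genotype was −0.29 under NX (FDR = 0.392) and 0.46 under CIH (SE 0.109, FDR = 0.00309).

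Hif1an encodes FIH, the oxygen-dependent asparaginyl hydroxylase. In males it was at 36.7, 40.3, 36.2, 33.1 and 34.7 CPM in WT NX and at 44.5, 55.6, 46.6, 45.8 and 40.0 CPM in WT CIH, with an overlap of M WT CIH 5 and M WT NX 2 alone (log2FC 0.36, SE 0.0987, FDR = 0.0132). In 5XFAD it was at 25.8, 32.8, 32.7, 45.4 and 45.8 CPM under NX and at 44.3, 39.4, 36.7, 32.0 and 27.4 CPM under CIH, libraries 4 and 5 again standing at the opposite end from the rest of their group. The log2FC of CIH on Hif1an in 5XFAD males was −0.02 (FDR = 0.997), and 0.43 (FDR = 0.0779) without these 4 libraries. The log2FC of genotype was −0.36 under CIH (SE 0.134, FDR = 0.0368), and 0.02 under NX. The call under CIH held in 4 of 10 fits that each left out 1 library, and was lost without M 5XFAD CIH 3, 4 or 5 or M WT CIH 2, 3 or 4 (FDR up to 0.0994). Over all female libraries the ranges were 70.9 to 102 CPM for Arnt, 39.3 to 56.3 for Egln2 and 42.2 to 55.9 for Hif1an, and none of these genes was called for CIH.

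**Figure D4:**
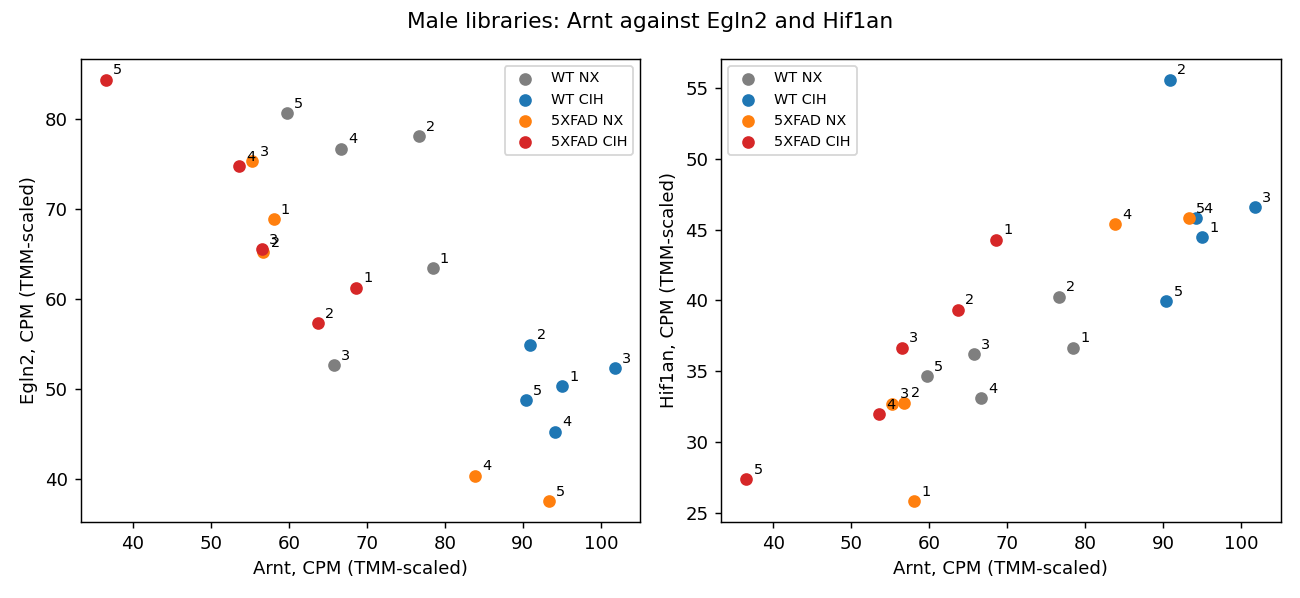
Arnt (x axis) against Egln2 (left panel, y axis) and Hif1an (right panel, y axis) in each male library, in TMM-scaled CPM, with points numbered by replicate and coloured by group. Libraries 4 and 5 of 5XFAD NX have high Arnt (83.9 and 93.3) with low Egln2 (40.3 and 37.5), and libraries 4 and 5 of 5XFAD CIH have the reverse (53.6 and 36.6 with 74.8 and 84.4).

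Whether CIH acted on WT and 5XFAD males differently was tested as an interaction. It gave Arnt −0.76 (SE 0.223, FDR = 0.118 by edgeR's quasi-likelihood test) and Egln2 0.74 (SE 0.243, FDR = 0.121), both with an unadjusted p < 0.05, and 0 members and 0% of 15813 genes were called, with 3857 genes at an unadjusted p < 0.05. By the other tools, edgeR's likelihood ratio test called 248 genes and none of the members, and DESeq2 called 1017 genes, Arnt and Egln2 among them. Without M 5XFAD NX 4 and 5 the interaction was −0.47 for Arnt and 0.46 for Egln2 (FDR = 0.41 for both), and without libraries 4 and 5 of both 5XFAD groups −0.29 and 0.30. In CIH males without M 5XFAD CIH 4 and 5, Arnt (−0.56) and Egln2 (0.31) were still called and Hif1an (−0.19, FDR = 0.212) and Vhl (−0.23, FDR = 0.0739) were not. In NX males without M 5XFAD NX 4 and 5, the 4 members called higher were the same, and Arnt stood at −0.30 (FDR = 0.0548). Neutrophil markers moved with CIH in WT males, with 6 of 8 called lower and sums of 235 to 1226 CPM under NX and 112 to 324 under CIH, and 10 of 15 DAM markers were called lower (sums of 14420 to 18840 and 11110 to 11760 CPM). Of the microglia markers 4 of 10 were called lower (32890 to 36700 and 28820 to 33370 CPM), and of the border macrophage markers 3 of 7 (229 to 325 and 146 to 317 CPM). Of the oligodendrocyte markers 2 of 7 were called higher (122 to 239 and 126 to 208 CPM), and of the 7 astrocyte markers tested 1 was, with a list median log2FC of 1.47. A single erythroid marker of 5 was called lower and 1 of 12 markers of the dissociation response higher. None of these markers was at 0 throughout a group, and their part in the result was not tested.

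Epas1, which encodes HIF-2 alpha and is known for its high expression in blood vessel cells, ranged from 1.65 to 60.9 CPM over the libraries. In females it was at 48.0, 7.003, 18.6 and 9.53 CPM in WT NX, at 1.65, 2.20, 30.9, 32.9 and 38.1 in WT CIH, at 11.9, 14.8, 4.58, 6.05 and 19.3 in 5XFAD NX and at 5.59, 24.4, 32.7, 16.3 and 19.5 CPM in 5XFAD CIH. In males it was at 5.84, 48.4, 8.68, 44.3 and 55.2 CPM in WT NX, at 6.38, 16.0, 12.7, 35.1 and 25.4 in WT CIH, at 32.5, 60.9, 36.2, 29.4 and 29.8 in 5XFAD NX and at 5.56, 26.3, 15.7, 24.1 and 16.9 CPM in 5XFAD CIH. The male 5XFAD groups did not overlap, with each CIH library below each NX library, and the other pairs did. In WT males the log2FC of CIH was −0.75 (SE 0.529, FDR = 0.312), and Epas1 was called there with no filter on low counts (−0.71, FDR = 2.41e-06) and under no other alternative. The log2FC of CIH in 5XFAD males was −1.09 (SE 0.347), lower in every CIH library, and failed the correction over 14334 genes (FDR = 0.9945 by edgeR's quasi-likelihood test). Without libraries 4 and 5 of both groups, a choice made after seeing the data, the log2FC of Epas1 was −1.41 (FDR = 0.0439), and 1185 genes of 13428 were called. Other markers moved between the same groups, with none called: 12 of 12 dissociation response markers had a positive log2FC, 7 at an unadjusted p < 0.05, and their sums did not overlap (1127 to 1637 CPM under NX, 1679 to 3761 under CIH). All 7 mural markers tested (5 at that limit) and all 8 neutrophil markers (4 at that limit) had a negative log2FC, with sums of 45.2 to 88.3 and 18.2 to 46.7 CPM for mural and of 71.1 to 1285 and 56.6 to 210 CPM for neutrophil markers. The part of these markers in the values of Epas1 was not tested.

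Endothelial markers moved with Epas1. Across libraries, the mean log2 CPM of 10 endothelial markers correlated with log2 CPM of Epas1 at Pearson's r = 0.894 in females (n = 19, permutation p = 2e-05, adjusted p = 2.7e-05, Spearman's rho = 0.954, p = 1e-05) and 0.971 in males (n = 20, permutation p = 1e-05, adjusted p = 2e-05, rho = 0.965, p = 1e-05), where 1e-05 was the smallest p the permutations could give. The permutations ran over all libraries of a sex without regard to group, so these p-values mix differences between groups with those between libraries. Without the 2 libraries farthest from the median of the marker level, r was 0.924 and 0.96. For 8 mural cell markers r was 0.774 in females (permutation p = 0.00011, rho = 0.795, p = 0.0001) and 0.866 in males (permutation p = 1e-05, rho = 0.875, p = 1e-05), and 0.73 and 0.839 without the 2 farthest libraries, in a family of 4 relations. All 10 endothelial markers had a negative log2FC for CIH in WT males and in 5XFAD males, with none called, and their sums were 201 to 377 CPM in 5XFAD NX and 128 to 255 in 5XFAD CIH males, 108 to 300 in WT NX and 107 to 215 in WT CIH males. In females the sums were 95.6 to 276 CPM. Slc2a1, the glucose transporter that is also in the list of glycolytic targets, held much of these sums (mean of 107.9 CPM in females and 106.8 in males), ahead of Pecam1 (31.5 and 33.6), so they do not read as endothelial level alone. None of these markers was at 0 in every library of a group, and their part in the values of Epas1 was not tested. In bulk RNA, fewer cells of a type and less RNA per cell cannot be told apart.

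**Figure D5:**
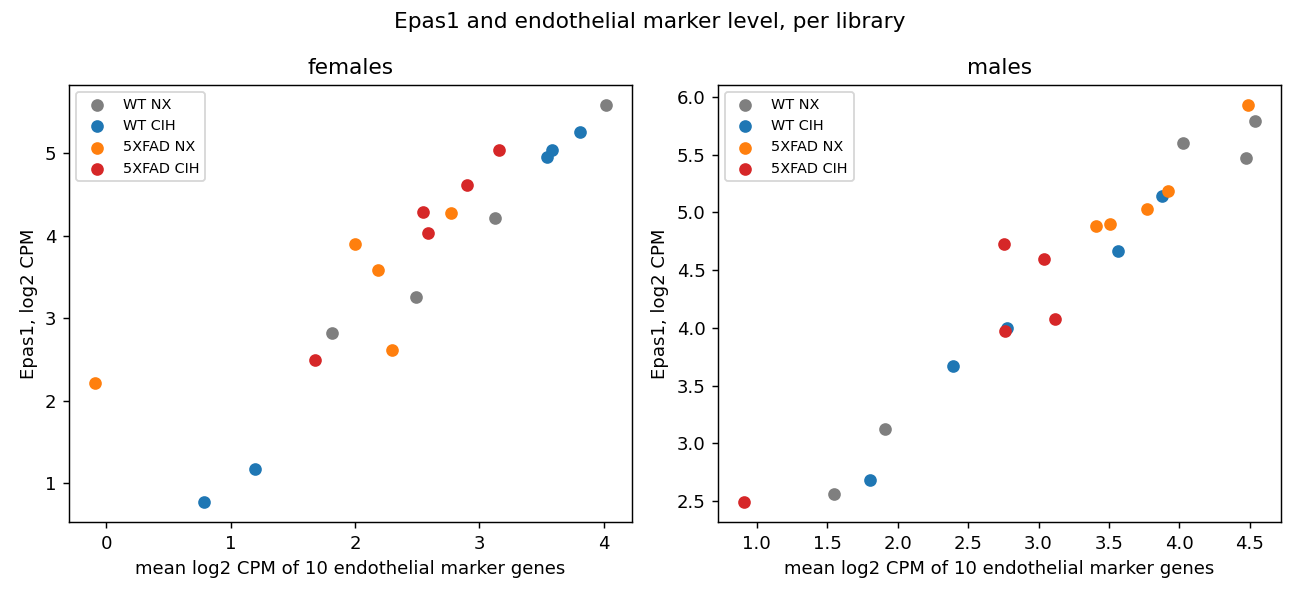
log2 CPM of Epas1 (y axis) against the mean log2 CPM of 10 endothelial markers (x axis), 1 point per library coloured by group, females and males apart. The points rise together in both sexes, with r = 0.894 in 19 female and 0.971 in 20 male libraries.

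In the other comparisons of CIH with NX, no member was called. In WT females 0% of 14583 genes were called by edgeR's quasi-likelihood test, 565 had an unadjusted p < 0.05, the likelihood ratio test and limma called 0 and DESeq2 called 1. Of the members, Egln3 (log2FC −1.19, SE 0.49), Hif1a (−0.16) and Egln1 (−0.18) had an unadjusted p < 0.05 by the same test, with FDR = 0.9598 for each. Egln3 rested on F WT NX 1 with its 10.9 CPM, and its log2FC was −0.20 without that library. The glycolytic targets behaved alike: 15 of 18 had a negative log2FC and 11 an unadjusted p < 0.05, with a median of −0.387 that was −0.171 without F WT NX 1, where 5 passed the same limit, and none was called either way. The DAM markers moved with them, with 13 of 15 negative, 7 at an unadjusted p < 0.05, none called and a median of −0.454 (sums of 13560 to 21460 CPM under NX and 13310 to 15990 under CIH), and their part in the result was not tested.

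In 5XFAD females 0% of 14578 genes were called, 470 had an unadjusted p < 0.05, none of them among the 9 members tested, and DESeq2 called 0 genes. The female interaction called 0% of 15582 genes, with 589 at an unadjusted p < 0.05, no member among them, and DESeq2 called 0. Without F 5XFAD NX 4 the count of members remained 0 in both. In 5XFAD males 0% of 14334 genes were called, with 473 at an unadjusted p < 0.05, of the members Epas1 alone, and the likelihood ratio test and DESeq2 each called 1 gene that was no member. In 5XFAD mice the log2FC of CIH on Hif1a was 0.06 (SE 0.416) in females and −0.28 (SE 0.142) in males, and on Egln3 0.14 (SE 0.600) and −0.02 (SE 0.178). Without F 5XFAD NX 4 the female values were −0.21 (SE 0.121) for Hif1a and −0.17 (SE 0.149) for Egln3. A missed threshold does not show that CIH left these genes unchanged.

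For the members called in any comparison, the pair of genes most like each was found by the deviations of log2 CPM from the group means over all libraries of a sex. In females they were Gnas (r = 0.987) and Cst7 (0.986) for Hif1a, Zmynd11 (0.95) and Ago1 (0.947) for Arnt, Pfkl (0.97) and Slc16a3 (0.955) for Egln1, Gm13192 (0.814) and Lemd2 (0.81) for Egln2, and Rab7b (0.958) and Capg (0.956) for Egln3. They were Strn (0.852) and Gm35074 (0.828) for Hif1an, Gtf2a1 (0.819) and Hbb-bs (0.816) for Vhl, and Slc16a3 (0.958) and Pfkl (0.948) for Bnip3. Egln1 and Bnip3 thus shared both genes, which encode a glycolytic enzyme and the lactate exporter. F 5XFAD NX 4 was the farthest library for Hif1a, Arnt, Egln1, Egln3 and Bnip3. Without the 2 farthest libraries r was 0.927 for Gnas with Hif1a, 0.823 for Rab7b with Egln3, 0.897 for Pfkl with Egln1, 0.893 for Slc16a3 with Bnip3 and 0.457 for Gtf2a1 with Vhl.

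In males the genes were Dyrk2 (0.891) and Acbd5 (0.874) for Hif1a, Polg (0.971) and Adap2 (0.968) for Arnt, Pgk1 (0.851) and Mzt1 (0.836) for Egln1, Hspbp1 (0.968) and Snrpb (0.958) for Egln2, and Hdac7 (0.869) and Hist1h2ac (0.819) for Egln3. They were Acvr2b (0.954) and Nr2c2 (0.945) for Hif1an, Adamts4 (0.731) and Gm46419 (0.705) for Vhl, and Mief1 (0.779) and 1700007L15Rik (0.744) for Bnip3, the last with r = 0.45 for Mief1 without the 2 farthest libraries. Of these, the highest values belonged to Arnt, Egln2 and Hif1an. A library 4 or 5 of a 5XFAD group was among the 2 farthest for these and also for Hif1a, Egln1 and Bnip3. Epas1, added after its values were seen, was most like Bcam (0.982) in females and Heg1 (0.975) in males. The points are libraries, 19 in females and 20 in males, which share their depth and group means, and no test was made.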

How the data were processed

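RNA from CD11b+ cells of 39 samples was sequenced as mRNA libraries by Novogene (NovaSeq, paired-end). The submitters' processing notes name HISAT2 and GRCm38/mm10, and the counting tool is not given in the sources used here. The authors deposited whole-number gene counts without normalization and FPKM values per gene. By the median over genes, the FPKM of females stood in the same ratio to counts over library total in each library. That of males was scaled by a further factor per library. Gene lengths were not given for females, so the female ratio was not checked against length. The labels gave sex, genotype, treatment and replicate number.

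edgeR 4.0.16 in R 4.3.3 was run on the counts with TMM scaling and its quasi-likelihood F test. Pairs of groups were fitted separately and the interaction over the 4 groups of a sex, over genes with CPM > 1 in at least 3 libraries compared. Here 1 CPM was 15 reads in the smallest female and 13 in the smallest male library. FDR was adjusted over all genes tested by the Benjamini-Hochberg method, SE was taken as the absolute log2FC over the square root of F, and the test was checked on simulated data. log2 CPM used a prior count of 1. Correlations of Epas1 used log2 CPM with group means kept and 100000 permutations over all libraries of a sex, two-sided. The genes most like a member were the leading ones by Pearson's r of deviations of log2 CPM from group means, over 15582 female and 15813 male genes. Named list genes were those with the largest changes among those called, together with Pgk1, Slc16a3, Vegfa and Pkm, which were named after their values were seen.

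The members and the gene lists were chosen with earlier results of these data known. Alternatives were DESeq2 1.42.0, the likelihood ratio test, limma 3.58.1 on log2(FPKM + 1) and log2(FPKM + 0.1), library-size scaling, other filters and limits, a block on the replicate number, a single fit of the 4 groups, and each library left out. No pair of libraries within a group agreed within counting noise, and pairs across groups were not compared in this way. Overlapping annotated genes had at most 1.34 CPM. Reported values use every library unless a sentence names one as left out.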

Additional observations from a re-analysis of the deposited data

Results flagged for a closer look

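In each set of 4 or 5 libraries of a group, the highest and lowest values of each gene, on the log2 CPM scale, were set against Dixon's 95% critical value. Of 80 sets, 5 passed it, where chance alone passes about 1 in 20, or 4. The 5 came from 3 libraries. F 5XFAD NX 4 was the low extreme of its group for Hif1a (121 CPM, the others 647 to 1016) and Egln3 (2.64 CPM, the others 72.5 to 121) and the high extreme for Hif3a (4.05 CPM, the others 0.133 to 0.324). F WT CIH 4 was low for Hif3a (0.411 CPM, the others 1.02 to 1.29). M 5XFAD NX 2 was high for Epas1 (60.9 CPM, the others 29.4 to 36.2).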

How the results depend on the processing

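Of the counts of called members recomputed under alternatives, 210 stayed within 1.5 times the reported value and 21 did not, and no called gene changed direction. The 210 include counts of 0 that stayed 0, where a range of 1.5 times has no meaning, so they overstate the stability of the calls. In NX females the 2 members called became 4 with DESeq2, 0 at FDR < 0.01 and 6 with all 4 groups in one fit, and 0 to 7 when each library was left out in turn. With the DEG limit on log2FC, the members called were 3 in CIH females, 2 in NX males, 3 in CIH males and 0 in WT males. In WT males the 3 members called became 0 with all 4 groups in one fit, where the FDR was 0.0858 for Arnt, 0.0859 for Egln2 and 0.123 for Hif1an. In 5XFAD males the count of 0 became 1 without libraries 4 and 5 of both groups. For the male interaction, 2 members were called with DESeq2 and 2 with no filter on low counts, and leaving out each library gave 0 to 1, the call being Arnt without M 5XFAD NX 1 (FDR = 0.0468). Leaving out each library gave 6 to 7 members in CIH females and 6 to 9 in CIH males, where Hif1an (FDR up to 0.0994) and Vhl (up to 0.0832) were each called in 4 of 10 fits. The cause of these changes was not tested, beyond the stricter limits themselves.

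With the replicate number as a block, 0 members were called in NX females (FDR = 0.126 for Hif1a and 0.122 for Egln3), and no other count of members left the range of 1.5 times. The numbers were not shown to pair the libraries: the correlations of same-numbered libraries' deviations ran from −0.494 to 0.349, and no comparison had all above 0.1.

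Depth limited Hif3a, with 0 to 69 reads per library, and Egln3 in the WT libraries other than F WT NX 1 (296 reads), which held 6 to 55 reads.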
